A study of Mus musculus with 20 samples.

Results

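The interferon regulatory factors (IRFs) considered here are the 8 genes Irf1, Irf2, Irf3, Irf4, Irf5, Irf7, Irf8 and Irf9, found by their symbol among the 37681 genes of each count table. Each of the 8 had 1 row in every table. The RNA came from the livers of 10 male C57/B6J mice aged 12 weeks, 5 injected intraperitoneally with the inflammatory cytokine IL-1β at 20 µg/kg and 5 with saline, hereafter untreated, 4 hours before collection. No other treatment or allele is given for either group, and the strain is labelled C57/BL6. Poly-A RNA of each mouse was sequenced on Illumina (HiSeq, paired-end) and on Ion Torrent (Proton), and each platform's reads were aligned by STAR, GSNAP or STAR + Bowtie2, which gives 6 tables of 10 libraries. The question for these genes was whether IL-1β changed the RNA level of the IRFs in liver and whether both platforms recorded it.

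IRFs are transcription factors that share a DNA-binding domain and recognise GAAA-containing elements in the promoters of interferons and interferon-response genes. Irf3 and Irf7 are held in the cytoplasm until kinases activated by nucleic acid and Toll-like receptors phosphorylate them, Irf9 is part of the complex that carries the type I interferon signal, Irf1 and Irf2 compete for the same elements, and Irf4, Irf5 and Irf8 act mainly in lymphoid and myeloid cells. In liver, hepatocytes and Kupffer cells, the resident macrophages, both respond to these pathways, so a level in whole tissue is a sum over cell types.

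Promoter bases are shown for the 4 members whose RNA level differed between treatments, because 3 of these promoters hold letters of elements that factors downstream of interferons or cytokines can bind and 1 does not. The sequences are the 250 bases before the first RefSeq start of each gene (promoter table of GRCm38.p6), and each matched NCBIM37, the build called mm9, at 1 place: chr11:53583266-53583515 for Irf1, chr8:47824849-47825098 for Irf2, chr6:29476375-29476624 for Irf5 and chr8:123260008-123260257 for Irf8, all on the plus strand. Capitals mark matches to the interferon-stimulated response element core GAAANNGAAA, to the interferon-gamma activated sequence TTCNNNGAA, which STAT dimers bind, or to the NF-kB consensus.
Irf1: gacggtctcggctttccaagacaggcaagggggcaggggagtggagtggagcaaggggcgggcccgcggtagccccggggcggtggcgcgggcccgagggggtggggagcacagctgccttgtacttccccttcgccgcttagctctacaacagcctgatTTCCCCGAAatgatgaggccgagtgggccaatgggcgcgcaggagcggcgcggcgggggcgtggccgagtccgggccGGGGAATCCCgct
Irf2: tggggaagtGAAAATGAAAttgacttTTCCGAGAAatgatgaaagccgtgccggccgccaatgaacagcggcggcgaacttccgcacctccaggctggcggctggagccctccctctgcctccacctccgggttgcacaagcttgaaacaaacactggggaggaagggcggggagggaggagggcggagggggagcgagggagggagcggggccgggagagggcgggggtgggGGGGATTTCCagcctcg
Irf5: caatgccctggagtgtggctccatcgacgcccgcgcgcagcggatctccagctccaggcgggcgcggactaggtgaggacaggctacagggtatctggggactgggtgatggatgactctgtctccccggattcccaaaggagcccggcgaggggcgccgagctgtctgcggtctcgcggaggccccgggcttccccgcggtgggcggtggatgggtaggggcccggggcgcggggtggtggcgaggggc
Irf8: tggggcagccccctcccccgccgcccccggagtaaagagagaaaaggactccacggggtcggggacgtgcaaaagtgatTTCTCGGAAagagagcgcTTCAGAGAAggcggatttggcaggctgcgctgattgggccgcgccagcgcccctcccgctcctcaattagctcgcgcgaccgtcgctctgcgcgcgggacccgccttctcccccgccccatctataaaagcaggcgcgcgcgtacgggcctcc

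Both strands were searched, and the marked matches do not overlap each other. The Irf1 promoter held TTCCCCGAA, 90 bases before the start, and an NF-kB match that ends 4 bases before it. The Irf2 promoter held all 3 kinds of match: GAAAATGAAA at 241 bases, TTCCGAGAA at 224 bases and an NF-kB match from 17 bases before the start. The Irf8 promoter held TTCTCGGAA and TTCAGAGAA, 171 and 153 bases before the start, and no match of the other kinds. No match lay in these bases of Irf5, nor in those of Irf3, Irf4, Irf7 and Irf9. Irf1 and Irf8 each had a later RefSeq start as well, and the bases before it held no match. The promoters shown were picked by the change of their genes in these data, and a link between matches and changes was not tested. Of 32851 mouse promoter stretches of this length, 2.98% held the response element core, 7.02% the activated sequence and 7.25% the NF-kB consensus. Letters alone do not show that a factor was bound in these livers.

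The values are whole-number read counts, listed below in the order ILB_9577, ILB_9578, ILB_9579, ILB_9582 and ILB_9583 for treated mice and UNT_9574, UNT_9575, UNT_9576, UNT_9580 and UNT_9584 for untreated mice. In the STAR tables, library totals were 10568530 to 11046256 for Illumina and 12199528 to 12723326 for Ion Torrent. A gene entered the tests if 5 or more libraries of any table had 5 or more reads of it, which left 15578 genes, 7 of the 8 IRFs among them. Counts were scaled by edgeR's TMM factors and each gene was called at an adjusted p below 0.05 (edgeR's quasi-likelihood test, Benjamini-Hochberg over the 15578 genes). All fold changes compare IL-1β-treated with untreated mice on this scale, which sets the typical gene near 0. Without it the median log2 fold change was -0.17 in the Illumina STAR data, and each member's value moved down by a similar amount. The libraries of untreated mouse UNT_9584 stood apart. Across 10525 genes, its deviations from the untreated mean correlated at 0.249 between platforms, against 0.555 to 0.715 for the other 9 mice. Results that lean on this mouse are given without it as well. As a check of the labelled tissue, 6 hepatocyte markers summed to 90849 to 110651 CPM in the untreated Illumina STAR libraries. CPM are counts scaled by each library's total and its TMM factor.

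Irf1 and Irf2 fell, Irf5 fell, and Irf8 rose after IL-1β. Irf3, Irf7 and Irf9 were not called, and Irf4 lay below the minimum of reads. The 4 calls among the 7 tested members compare with 45.7% of all genes tested that were called in the Illumina STAR data, 22.7% higher and 22.9% lower, so the share of IRFs called is not far from that of genes in general. The same 4 members were called in the same directions in each of the other 5 tables, where the share of all genes called was 47.5% (Illumina GSNAP), 47.4% (Illumina STAR + Bowtie2), 42.1% (Ion Torrent STAR), 46.4% (Ion Torrent GSNAP) and 46.7% (Ion Torrent STAR + Bowtie2). The tables share mice and, within a platform, reads, so they are not independent repeats.

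**Figure D1:**
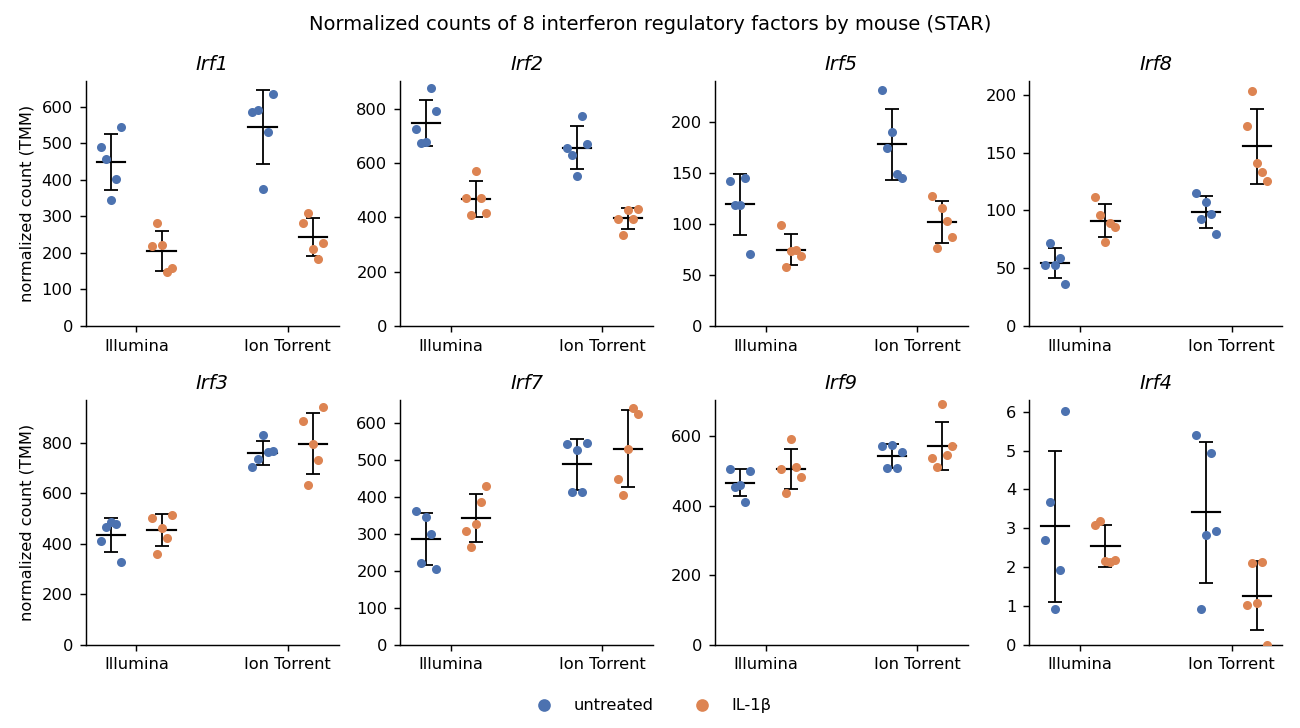
TMM-normalized counts (vertical axes, linear from 0) of the 8 IRFs in the STAR tables, 1 point per mouse, with the mean and SD of each group of 5 mice in black. Treated mice lie below untreated mice for Irf1 and Irf2 and above them for Irf8 on both platforms, while Irf4 stays near 6 or below.

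Irf1, an activator of antiviral and antigen-presentation genes (ENSMUSG00000018899, chr11:53583516-53591876, plus strand), showed the largest change of the 7 tested members. Its Illumina STAR counts were 214, 264, 206, 139 and 146 in the treated mice and 545, 498, 373, 420 and 542 in the untreated mice. The groups did not overlap, since the highest treated mouse, ILB_9578, lay well below the lowest untreated mouse, UNT_9576. The fitted log2 fold change was -1.12 ± 0.17 (SE), which leaves 46.0% of the untreated level (95% interval 35.8% to 59.0%; adjusted p = 7.3e-05, edgeR). Ion Torrent STAR counts were 281, 294, 198, 174 and 206 in the treated and 650, 642, 397, 540 and 651 in the untreated mice, a log2 fold change of -1.16. Mouse UNT_9576 was the lowest untreated mouse in all 3 tables of each platform. Irf1 did not overlap between groups in any of the 6 tables. Of all genes tested, 33.9% had groups of normalized counts that did not overlap in the Illumina STAR data.

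Irf2, which binds the same elements as Irf1 and mostly represses them (ENSMUSG00000031627, chr8:47825099-47932812, plus strand), had Illumina STAR counts of 459, 384, 534, 440 and 383 in the treated mice. The untreated mice had 808, 733, 732, 912 and 789 reads. Every treated mouse was below every untreated one. The log2 fold change was -0.68 ± 0.11 (SE), or 62.5% of the untreated level (95% interval 52.8% to 73.8%; adjusted p = 0.00017, edgeR). On Ion Torrent the change was -0.73, again with no overlap, as in all 6 tables. Activator and competitor both fell. Their ratio of levels per length, Irf1 to Irf2, had a median of 0.421 in untreated and 0.241 in treated mice in the Illumina STAR data, but the groups overlapped.

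Irf5, an activator of inflammatory cytokine genes in macrophages (ENSMUSG00000029771, chr6:29476625-29491869, plus strand), was lower. Its Illumina STAR counts were 97, 54, 69, 70 and 63 in the treated mice and 159, 129, 128, 152 and 71 in the untreated mice. The groups overlapped through untreated mouse UNT_9584 alone, whose 71 reads fell among the treated values. The log2 fold change was -0.67 ± 0.20 (SE; adjusted p = 0.011, edgeR), and -0.81 without mouse UNT_9584. On Ion Torrent, with 127, 73, 109, 97 and 79 treated against 257, 189, 202, 151 and 149 untreated reads, Irf5 did not overlap between groups and changed by -0.80 on the log2 scale (adjusted p = 0.0012, edgeR). Exons of Irf5 share 411 bases, 14.2% of their length, with Tnpo3 on the other strand, and whether reads were counted by strand is not given in the sources used here. Smaller exon overlaps, of 45 to 135 bases, exist for Irf1, Irf3 and Irf7 with a gene on the other strand and, of 123 bases, for Irf9 with Rnf31 on the same strand.

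Irf8, which drives development of monocytes and dendritic cells (ENSMUSG00000041515, chr8:123260258-123280594, plus strand), was the 1 member that rose. Its Illumina STAR counts were 109, 90, 68, 83 and 79 in the treated mice and 59, 78, 57, 61 and 36 in the untreated mice. The counts overlapped, because untreated mouse UNT_9575 with 78 reads exceeded treated mouse ILB_9579 with 68. After TMM scaling the groups did not overlap in 4 of the 6 tables. The log2 fold change was 0.74 ± 0.18 (SE), 167% of the untreated level (95% interval 128% to 218%; adjusted p = 0.0036, edgeR), and 0.62 without mouse UNT_9584, the lowest untreated mouse. Ion Torrent counts of 172, 194, 133, 126 and 113 against 128, 100, 114, 98 and 82 gave 0.66 (adjusted p = 0.0038, edgeR). The two-sided exact Mann-Whitney test on the unscaled counts, the kind of test the study used, called the same 4 members in the Illumina STAR data, where it called 39.1% of all genes. It gave Irf8 a q of 0.0406 there, but 0.0687 to 0.169 in the other 5 tables, a comparison added after the data were seen, and Irf5 a q of 0.0687 in the Illumina STAR + Bowtie2 data. Irf1 and Irf2 were called by both tests in all 6 tables.

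Irf3, the constitutively present factor that responds to nucleic acid sensors (ENSMUSG00000003184, chr7:52253018-52258218, plus strand), had 492, 338, 433, 395 and 474 reads in the treated and 458, 510, 525, 501 and 327 in the untreated Illumina STAR libraries. The groups overlapped over most of their range. The log2 fold change was 0.06 (95% interval -0.22 to 0.33; adjusted p = 0.77, edgeR), and -0.027 without mouse UNT_9584. Across the 6 tables it lay between 0.03 and 0.08.

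Irf7, the interferon-inducible factor behind the later wave of interferon-alpha transcription (ENSMUSG00000025498, chr7:148448605-148452380, minus strand), had 299, 249, 305, 360 and 395 reads in the treated mice and 402, 239, 371, 312 and 203 in the untreated mice. The groups overlapped, with mouse UNT_9584 lowest of all 10. In the Ion Torrent STAR data the same mouse had 559 reads, inside the upper part of the untreated range of 417 to 601. The log2 fold change was 0.26 on Illumina (95% interval -0.10 to 0.63; adjusted p = 0.24, edgeR), 0.16 without mouse UNT_9584, and 0.12 on Ion Torrent (95% interval -0.18 to 0.42). An increase of Irf7 by more than 0.63 on the log2 scale lies outside these intervals.

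Irf9, the DNA-binding subunit of the type I interferon complex (ENSMUSG00000002325, chr14:56222408-56228867, plus strand), had 494, 411, 554, 478 and 445 reads in the treated and 564, 494, 498, 427 and 498 in the untreated mice. It had the lowest coefficient of variation of the 7 tested members in both groups, 8.39% in the untreated and 11.2% in the treated mice. The log2 fold change was 0.12 (95% interval -0.10 to 0.34; adjusted p = 0.38, edgeR). The small positive values of Irf3 and Irf9 turned negative without TMM scaling, at -0.12 and -0.059.

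Irf4, a factor of B cells, plasma cells and activated T cells (ENSMUSG00000021356, chr13:30841095-30858796, plus strand), had 3, 3, 2, 2 and 2 reads in the treated and 3, 4, 1, 2 and 6 in the untreated Illumina STAR libraries. It passed the minimum in none of the 6 tables and never exceeded 8 reads in a library. Irf4 was therefore fitted with no filter in each table, an alternative added after the data were seen. In the Illumina tables its log2 fold change was -0.23 (STAR), 0.09 (GSNAP) and 0.05 (STAR + Bowtie2), with adjusted p-values of 0.763 to 0.955 (edgeR). The 3 Ion Torrent tables leaned lower, with 6 against 18, 7 against 23 and 5 against 23 reads summed over the 5 treated and the 5 untreated mice. With STAR the value was -1.32 (95% interval -2.80 to 0.16; adjusted p = 0.173, edgeR) and with GSNAP -1.49 (adjusted p = 0.0985, edgeR). With STAR + Bowtie2, at 1, 3, 1, 0 and 0 treated against 6, 3, 5, 4 and 5 untreated reads, Irf4 was called lower at -1.96 (95% interval -3.42 to -0.50; adjusted p = 0.035, edgeR), where 32.5% of all genes in that unfiltered fit were called. The exact Mann-Whitney test gave a q of 0.0563 there. Irf4 was thus called in 1 of the 6 tables, and the difference between platforms was not tested for it. Markers of B cells, summed over 5 genes, were scarce as well. They were at 0.978 to 3.83 CPM in the untreated and 0.503 to 1.39 in the treated Illumina STAR libraries, and at 2.43 to 4.57 and 1.10 to 2.14 CPM, without overlap, in the Ion Torrent STAR libraries. Their part in the values of Irf4 was not tested.

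**Figure D2:**
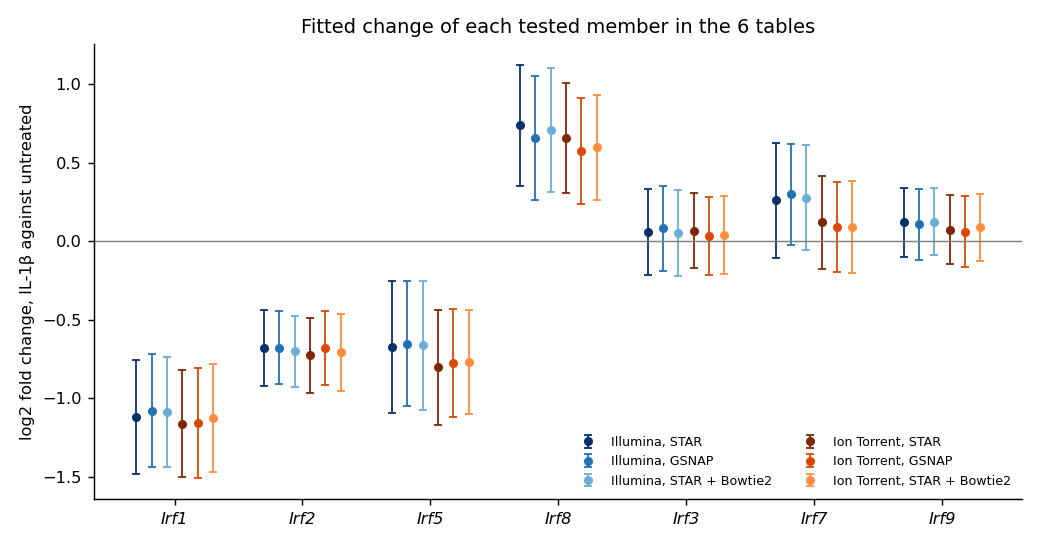
Fitted log2 fold change (vertical axis, IL-1β against untreated) of the 7 tested IRFs with 95% intervals, 1 point for each of the 6 tables. Intervals of Irf1, Irf2 and Irf5 lie below 0 and those of Irf8 above 0 in all 6 tables, and those of Irf3, Irf7 and Irf9 span 0.

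Whether the platforms recorded different effects was tested by the platform-by-treatment term of a model over the 20 STAR libraries, with a block for each mouse (edgeR). This term was called for 0 of the 7 members, with 0 at an unadjusted p below 0.05, and DESeq2 and limma-voom also called 0. Of all genes tested, 0.00642% were called, which is 1 gene. The difference between the Ion Torrent and the Illumina effect ranged from -0.14 for Irf7 (95% interval -0.41 to 0.13) to 0.01 for Irf3 (-0.20 to 0.22). The widest interval was that of Irf8, -0.44 to 0.28, so platform differences within this range are not excluded for Irf8. A term that was not called does not show that the effects were equal. Without mouse UNT_9584, the term for Irf7 was 0.01.

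Levels of different IRFs were compared per exon length in RPKM, the library-scaled read count for each kilobase of exon, with the exon length taken over all annotated transcripts of a gene. In the untreated Illumina STAR libraries Irf2 was highest at 27.9 ± 3.17 RPKM (SD, n = 5). Irf3 followed at 12.6 ± 1.94, Irf1 at 10.4 ± 1.79, Irf7 at 8.75 ± 2.19 and Irf9 at 8.02 ± 0.673 RPKM, and neighbours in this order overlapped. Irf5 at 3.81 ± 0.954, Irf8 at 0.715 ± 0.168 and Irf4 at 0.0599 ± 0.0382 RPKM each lay below the one before without overlap. Although Irf8 rose, it stayed the lowest tested member in the treated mice, at 1.2 ± 0.186 RPKM. In the Ion Torrent STAR data Irf2 (21.3 ± 2.60 RPKM) and Irf3 (19.2 ± 1.19 RPKM) were closer to each other.

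Summed over the 8 members, the level was 72.4 ± 4.0 RPKM in untreated and 58.2 ± 4.60 RPKM in treated mice (SD, n = 5), and the groups did not overlap on either platform. The makeup of the sum shifted. The share of Irf2 went from 38.6% to 29.9% and that of Irf1, with overlap between the groups, from 14.5% to 8.34%. The shares of Irf3, from 17.5% to 22.6%, and of Irf7, from 12% to 18%, were larger in treated mice, although neither gene was called, since a share depends on the other members too. Irf8 went from 0.990% to 2.07%. The ratio of Irf8 to Irf5, the pair of myeloid factors that moved in opposite directions, had a median of 0.183 in untreated mice (range 0.153 to 0.249) and 0.488 in treated mice (0.406 to 0.686). On Ion Torrent these medians were 0.226 and 0.557, again without overlap. Mouse UNT_9584, which set the overlap of Irf5 itself, did not overlap the treated mice in this ratio. Because Irf8 rose and Irf5 fell in these same libraries, the separation of their ratio adds no further support to either change.

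**Figure D3:**
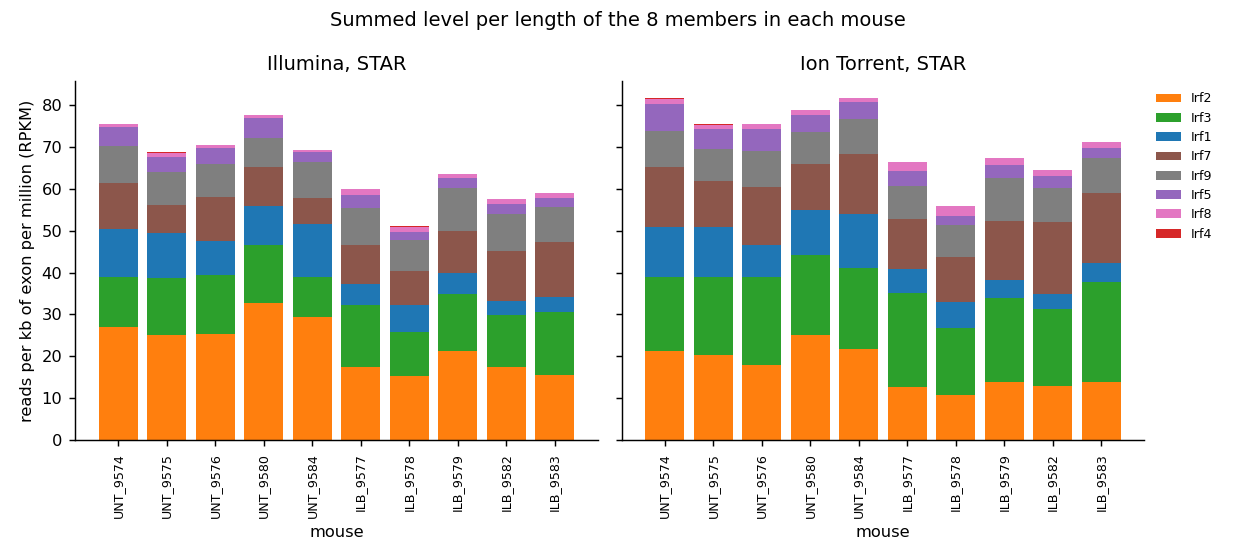
Level per length of the 8 IRFs (stacked, RPKM, linear axis from 0) in each of the 10 mice, untreated on the left of each panel. The total is lower in every treated mouse than in every untreated mouse on both platforms, with the bands of Irf2 and Irf1 narrowed.

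In bulk liver, fewer cells of a type and less RNA per cell cannot be told apart, which bears on Irf5 and Irf8 in particular. Of 11 markers of Kupffer cells and macrophages, 3 fell (Clec4f, -0.60; Csf1r, -0.62; Vsig4, -0.91), 1 rose (Marco, 2.16) and 7 were not called. Their sum was 171 to 309 CPM in untreated and 113 to 260 in treated mice, with overlap. The 6 neutrophil markers summed to 0.80 to 3.0 CPM in untreated and 44.5 to 102 in treated mice, without overlap. Ly6g was at 0 in the untreated mice and at most 2 reads in the treated. All 5 that could be tested rose. However, Retnlg, Cxcr2 and Mmp8 had at most 3 reads in any untreated library. In these libraries only the treated mice brought them to the minimum of reads, so their rise is not independent of that filter. Of the 7 dendritic cell markers, 1 of the 5 tested was called (Itgax, higher) in the Illumina STAR data and 0 in each of the 3 Ion Torrent tables by edgeR, and their sums overlapped (10.9 to 14.1 against 9.82 to 15.2 CPM). The 3 monocyte markers summed to 1.63 to 2.51 and 2.22 to 6.41 CPM, with 1 of them, Chi3l3, called higher. Chi3l3, at 5 to 24 against 0 to 1 reads, also reached the minimum there through the treated mice alone. Of 7 markers of T and NK cells 0 of the 3 tested were called by edgeR, and the sums were 1.60 to 2.69 and 1.01 to 2.18 CPM. Of 5 endothelial markers, 2 rose (Cdh5 and Lyve1) and 1 fell (Clec4g), with sums of 84.9 to 132 and 82.0 to 130 CPM. Hepatocyte markers fell in 4 of 6 cases, and their sum was 64560 to 77341 CPM in the treated mice, below all untreated mice. B cell markers fell in 1 of the 3 tested, Cd79a, at 0 to 2 against 3 to 10 reads. In these libraries only untreated mice held 5 or more reads of Cd79a, so its fall is not independent of that filter. The calls in these marker lists stand beside 45.7% of all genes called in the Illumina STAR data, 22.7% higher and 22.9% lower. Groups of single-gene normalized counts did not overlap there for 33.9% of all genes tested. The part of these cell types in the changes of Irf1, Irf2, Irf5 and Irf8 was not tested.

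**Figure D4:**
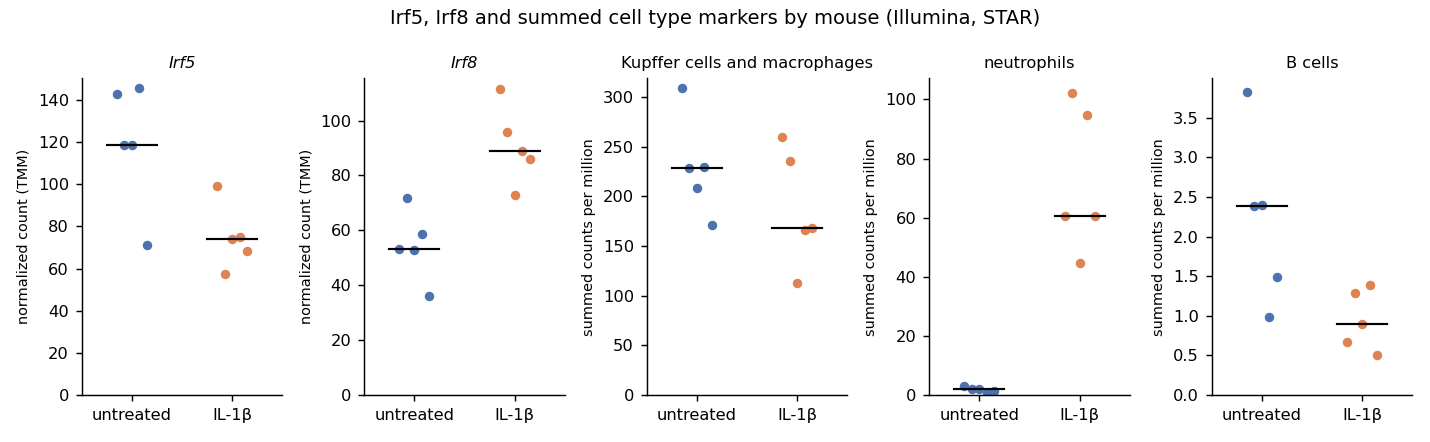
Normalized counts of Irf5 and Irf8 and summed CPM of 3 marker lists in the Illumina STAR data, 1 point per mouse with the group median as a line, linear axes from 0. Neutrophil marker sums are at most 3.0 in untreated and at least 44.5 in treated mice, whereas macrophage marker sums overlap.

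Genes that work with the IRFs were read from 4 lists, and some genes stand in more than 1 of them. Among 15 partners and binding proteins, 5 rose and 2 fell, with a median log2 fold change of 0.28 against 0.00 over all genes tested. These 7 calls among 15 are at the background of 45.7% called, with 22.7% higher and 22.9% lower. Stat2, which pairs with Irf9, had 1141 to 1549 reads in treated and 829 to 1087 in untreated mice and rose by 0.68 on the log2 scale, in all 6 tables, beside an Irf9 that was not called. Batf, an AP-1 factor that pairs with Irf4 and Irf8, rose from 0 to 2 reads to 5 to 10 reads (log2 fold change 2.40 ± 0.49, SE), but its relative Batf3 did not pass the test (0.01 ± 0.52). In these libraries only the treated mice brought Batf to the minimum of reads, so its rise is not independent of that filter. Sfpi1, which encodes PU.1, the partner of Irf8 in myeloid cells, had 12 to 37 reads in treated and 7 to 30 in untreated mice (0.78 ± 0.33; adjusted p = 0.066, edgeR). Stat6 fell by 0.45 on the log2 scale. Also called, and named after their values were seen, were Spib (1.19, at 4 to 9 against 1 to 6 reads and called in 1 of the 6 tables) and Trim21 (-0.73), a ubiquitin ligase of IRFs. The Irf2 corepressors Irf2bp1 (0.35) and Irf2bp2 (0.28) and their relative Irf2bpl (-0.01, listed as 1110031I02Rik) did not pass the test.

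Upstream of Irf3, Irf5 and Irf7, 13 of the 24 tested sensors, adaptors and kinases were called, 9 higher and 4 lower, with a median log2 fold change of 0.25. With 45.7% of all genes called, this count is near the background, and the Mann-Whitney test called 9 of the 24 against 39.1% of all genes. Ikbke, a kinase of Irf3 and Irf7, rose 9.86-fold, from 173 to 402 reads to 1700 to 2902 reads. Its partner kinase Tbk1 rose 1.85-fold. The adaptors Myd88 (3.41-fold) and Ticam1 (2.62-fold) and the nucleic acid sensor Zbp1 (3.16-fold) also rose, each in all 6 tables. Tlr3, the endosomal receptor for double-stranded RNA, fell to 0.322 of the untreated level. The other 3 that fell, named after their values were seen, were the RIG-I-like receptors Ddx58 (-0.90) and Dhx58 (-0.75) and the Tbk1 adaptor Tbkbp1 (-0.69). Ifih1, also a RIG-I-like receptor and also named after its values were seen, was not called (-0.16, adjusted p = 0.34, edgeR). Tlr9 and Ticam2 lay below the minimum of reads.

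None of 9 interferon ligands was detected, and 7 of them, Ifnb1 included, had 0 reads in all libraries of the 6 tables. Taken alone, a library with 0 reads allows an expected count of up to 3 at the 95% level, for counting error only. Ifng never exceeded 4 reads. These libraries hold RNA from 1 time point only. Of the 13 receptors and JAK-STAT genes tested, 6 rose and 0 fell (edgeR), with a median log2 fold change of 0.53. Over all genes 45.7% were called, 22.7% higher and 22.9% lower. The Mann-Whitney test on unscaled counts called 5 higher and 1 lower, and edgeR without TMM scaling called 6 higher and 1 lower. Among the 6 that rose by edgeR with TMM scaling were Stat2, Ifnar1 (0.53), Ifngr2 (0.94), Jak1 (0.53) and, at 3 to 8 against 0 to 5 reads, Il28ra. Il28ra, named after its values were seen, was called in 5 of the 6 tables.

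Of the 33 tested among 35 interferon-response targets, 17 rose and 4 fell, with a median log2 fold change of 0.64. These 21 calls among 33 stand beside 45.7% of all genes called, 22.7% higher and 22.9% lower, and the Mann-Whitney test called 15 of the 33 against 39.1%. The targets did not move as 1 group. Gbp2, an interferon-induced GTPase, rose 17.6-fold and the chemokine Cxcl9 62.0-fold (5102 to 9522 reads in treated against 73 to 179 in untreated mice). Isg15, a ubiquitin-like modifier, rose 2.86-fold. Nos2, the inducible nitric oxide synthase, had 8 to 42 reads in treated and 0 to 1 in untreated mice. Like Batf, it reached the minimum of reads there through the treated mice alone. In contrast Cxcl11, a chemokine related to Cxcl9, fell from 20 to 100 reads to 5 to 9 reads. The other 3 that fell, named after their values were seen, were Il15 (-1.25), Oasl1 (-0.88) and B2m (-0.38). Il15 had 2 to 6 against 8 to 15 reads. All untreated but not all treated mice held the minimum of 5 reads of Il15, so its fall is not independent of that filter. Genes known as targets of the complex that holds Irf9, also named after their values were seen, were divided. Ifit1 (0.17), Ifit2 (0.00), Ifit3 (-0.34), Rsad2 (0.14) and Mx1 (-0.71) did not pass the test. Mx2 (0.74), Oasl2 (0.88) and Isg15 were called higher in all 6 tables, and Oas1a (0.67) was called higher in 2 of them.

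**Figure D5:**
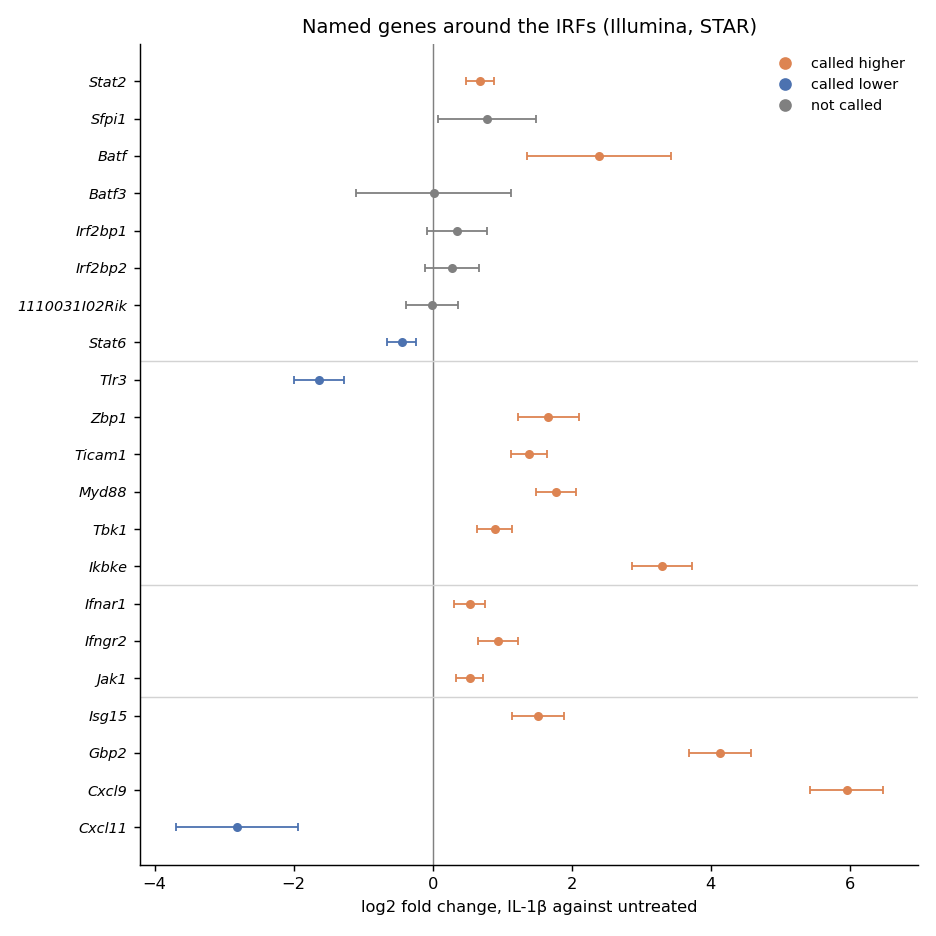
Fitted log2 fold change with its 95% interval (horizontal axis, Illumina STAR, IL-1β against untreated) of the named genes around the IRFs, in the order partners, sensors and kinases, receptors and JAK, and targets from top to bottom. Ikbke, Gbp2 and Cxcl9 lie at 3.30 or above, and the whole intervals of Tlr3, Stat6 and Cxcl11 lie below 0.

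Genes with the profile nearest to each member were sought among 9254 genes with a mean of at least 50 reads, by the root mean square (RMS) difference of centred log2 normalized counts over the 10 Illumina STAR libraries. For Irf1 these were Ormdl1 (RMS 0.186) and Fcgr2b (0.195), for Irf2 Hebp1 (0.0849) and Zfp945 (0.0976), for Irf5 Myh14 (0.134) and Tsen34 (0.154), and for Irf8 Hgs (0.130) and Phf15 (0.131). On Ion Torrent the same pairs lay farther apart, at 0.317 and 0.373 for Irf1, 0.135 and 0.338 for Irf2, 0.292 and 0.420 for Irf5, and 0.370 and 0.312 for Irf8. The pairs were picked as the nearest on Illumina, so larger distances in other libraries follow from that choice and are no result about the genes. Hebp1 and Irf2 were the closest pair of these on both platforms. The nearest genes of the uncalled members were Aurkaip1 and Stub1 for Irf3 (0.0724 and 0.0784), Lsm4 and Gm15427 for Irf7 (0.107 and 0.128) and Gmcl1 and Cdc16 for Irf9 (0.0792 and 0.0925).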

How the data were processed

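Liver RNA of 10 mice, 5 per treatment, was sequenced on both platforms from the same extract. The authors aligned reads to mm9 with STAR 2.5.1b, GSNAP or STAR followed by Bowtie2 2.2.9, removed rRNA and mitochondrial reads with PORT, and re-sampled each table to a common number of gene-mapping reads over Ensembl models. The values deposited by the authors are whole-number count values per gene, in 6 tables normalized separately. Whether a count is a read or a read pair, and whether strand was used, is not given in the sources used here. All 60 count columns were used, and the re-sampled counts, not raw reads, set the precision. Groups came from the sample labels.

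Counts of the 15578 detected genes were scaled by TMM and fitted with edgeR 4.0.16 (quasi-likelihood) in R 4.3.3 within each table. Alternatives were DESeq2 1.42.0, limma-voom (limma 3.58.1), an exact two-sided Mann-Whitney test with Benjamini-Hochberg adjustment, RLE or no scaling, other filters, other tables, and leaving out each mouse. The study tested with Mann-Whitney; edgeR was the main test here because the values are counts. The platform-by-treatment fit had a block for each mouse. The labels pair the Illumina and the Ion Torrent library of an animal, and deviations of a mouse's libraries correlated at 0.249 to 0.715. Untreated and treated mice are different animals, so no pairing exists between treatments. The tests were tested on simulated data. Floors cover counting error only. Python 3.11.15 with pandas 2.3.3 and matplotlib 3.10.9 did the rest.

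The members and gene lists were chosen with earlier results of these data known. Named genes were all members, up to 5 genes per list with the largest change called alike in all 6 tables, and fixed partners, kinases, adaptors and ligands. Of 37681 gene identifiers, 37310 are in the NCBIM37 annotation used for positions and exon lengths, all detected genes among them. Promoter bases came from RefSeq, with all 8 members matched. Some genes of the lists are counted but not reported here by name.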

Additional observations from a re-analysis of the deposited data

How the results depend on the processing

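The 4 members called in the Illumina STAR data (Irf1, Irf2, Irf5 and Irf8) were called in the same directions under all 22 alternatives of test, scaling, filter, table and mice. Their log2 fold changes ranged from -1.30 to -1.03 for Irf1, -0.85 to -0.62 for Irf2, -0.86 to -0.59 for Irf5 and 0.56 to 0.86 for Irf8. Each alternative changed 1 choice, apart from Mann-Whitney, which also left out TMM scaling, and DESeq2, which used its own scaling. Mann-Whitney entered these alternatives only with the Illumina STAR data. In the other 5 tables it did not call Irf8 (q of 0.0687 to 0.169, Mann-Whitney). Nor did it call Irf5 in the Illumina STAR + Bowtie2 data (q of 0.0687, Mann-Whitney). The uncalled value of Irf3 turned negative with Mann-Whitney (-0.12), without further scaling (-0.12) and without untreated mouse UNT_9584 (-0.027), and that of Irf9 with Mann-Whitney (-0.059) and without further scaling (-0.059). The Mann-Whitney values are ratios of unscaled counts, so both alternatives leave out the same scaling. Leaving out each mouse in turn gave Irf3 values of -0.027 to 0.13. The count of members called then stayed at 4, and the counts of the lists ranged from 6 to 7 (partners), 11 to 14 (sensors, adaptors and kinases), 5 to 7 (receptors and JAK-STAT) and 19 to 22 (targets). Under the other alternatives they reached 8 partners, as few as 9 sensors and 15 targets with Mann-Whitney, and 8 receptors and JAK-STAT genes. The platform-by-treatment term called 0 of 7 members with the replicate block and 0 with no replicate block, where the lowest adjusted p was 0.847 and 1.0 (edgeR). It also called 0 under the other 16 alternatives, at lowest adjusted p-values of 0.594 to 1.0. Irf4, below the minimum of reads in every table, was called in 1 of the 6 tables when fitted with no filter, so the count of members depends on that filter in the Ion Torrent STAR + Bowtie2 data.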
